A study of Gallus gallus with 89 samples.

Results

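GATA4, GATA6, HAND1 and HAND2 are 4 of the 13823 genes counted across 89 individual cells from the amniogenic somatopleure of the chick. They were taken by name, with earlier results of these data known. The amniogenic somatopleure is the sheet of surface ectoderm and lateral plate mesoderm that folds over the embryo and becomes the amnion. The cells came from grafts holding both layers, pooled from more than 15 untreated wild-type embryos at embryonic day 1.5 (stage 10), so the tissue is 1 sample in 1 group with no control. Each cell was caught on a Fluidigm C1 chip, a device with 1 chamber per cell, and its RNA was read along the whole transcript. Cell titles begin with X09 (58 cells) or X29 (31 cells), a prefix whose meaning the labels do not give.

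GATA4 and GATA6 are zinc finger transcription factors that bind the DNA motif GATA, while HAND1 and HAND2 are basic helix-loop-helix factors that bind DNA as dimers with E proteins. All 4 are known from the lateral plate, where bone morphogenetic proteins promote their expression, and from the heart that forms from it. In the mouse Gata4 and Gata6 are also needed in extraembryonic endoderm, Hand1 in trophoblast and extraembryonic mesoderm, and Hand2 in the heart and the limb bud.

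Levels are in CPM, the reads of a gene scaled to the total reads of its cell, and a gene was called detected in a cell at 10 CPM or more. Reads per cell ranged from 328645 to 2381723 (median 1464140), and genes with a read from 2394 to 9015 (median 5580). Cells are not replicates, so no test was run and SDs are over cells. Intervals are exact Clopper-Pearson intervals at 95%, which cover counting error only. Gene length is not part of the table, so levels are not compared between the 4 genes. Shares of cells above a CPM limit also depend on gene length, so the order of the genes by share has the same limit. A gene was said to pass the size rule between 2 classes of cells when its mean CPM (1 CPM added) differed at least 2-fold and the share of detecting cells by at least 20 percentage points in the same direction.

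Cells were sorted by 3 markers of surface ectoderm, CDH1 (E-cadherin), TFAP2A (a regulator of surface ectoderm) and CLDN3 (a tight junction claudin). There were 54 cells with 0 of the markers (38 X09 and 16 X29), 8 with 1 marker (6 and 2) and 27 with 2 or 3 (14 and 13). The mesenchymal homeobox gene PRRX1 was found in 92.6% of the cells with 0 markers and in 18.5% of those with 2 or 3, whereas the keratin gene KRT7 was found in 98.1% and 100% and did not part them. The cells with 0 markers were divided by CDX2, a homeobox gene of posterior and extraembryonic tissues, which was detected in 35 of them (29 X09 and 6 X29) and not in 19 (9 and 10). Among the cells with 0 ectoderm markers were 5 with 10 to 13 of 13 measured endothelial markers, of which 1 detected CDX2 and 4 did not. Their summed endothelial level was 6069 to 9877 CPM, against 0 to 596 CPM in the other 49 cells with 0 ectoderm markers, which had fewer than 5 of the markers each. The words cells with endothelial markers are used below for these 5.

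At the 10 CPM limit HAND1 was detected in the most cells and GATA4 in the fewest, while at 50 CPM HAND2 (56.2%) and HAND1 (55.1%) changed places. HAND1 was found in 70 of 89 cells (78.7%, interval 68.7 to 86.6%), HAND2 in 60 (67.4%, 56.7 to 76.98%), GATA6 in 49 (55.1%, 44.1 to 65.6%) and GATA4 in 27 (30.3%, 21.03 to 40.99%). In this order the intervals of each gene and the next overlapped, except those of GATA6 and GATA4. The GATA4 level ran from 0 to 367 CPM with a median of 0 and a mean of 32.3 ± 72.2 (SD, n = 89 cells), and 41 cells had a GATA4 read. GATA6 ran from 0 to 237 CPM (median 26.03, mean 48.4 ± 61.6). HAND1 ran from 0 to 237 CPM (median 54.7, mean 60.9 ± 50.8). HAND2 ran from 0 to 314 CPM (median 66.9, mean 84.6 ± 83.2). When every cell was thinned to 328645 reads, the number of detecting cells changed by at most 1 in any group.

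**Figure D1:**
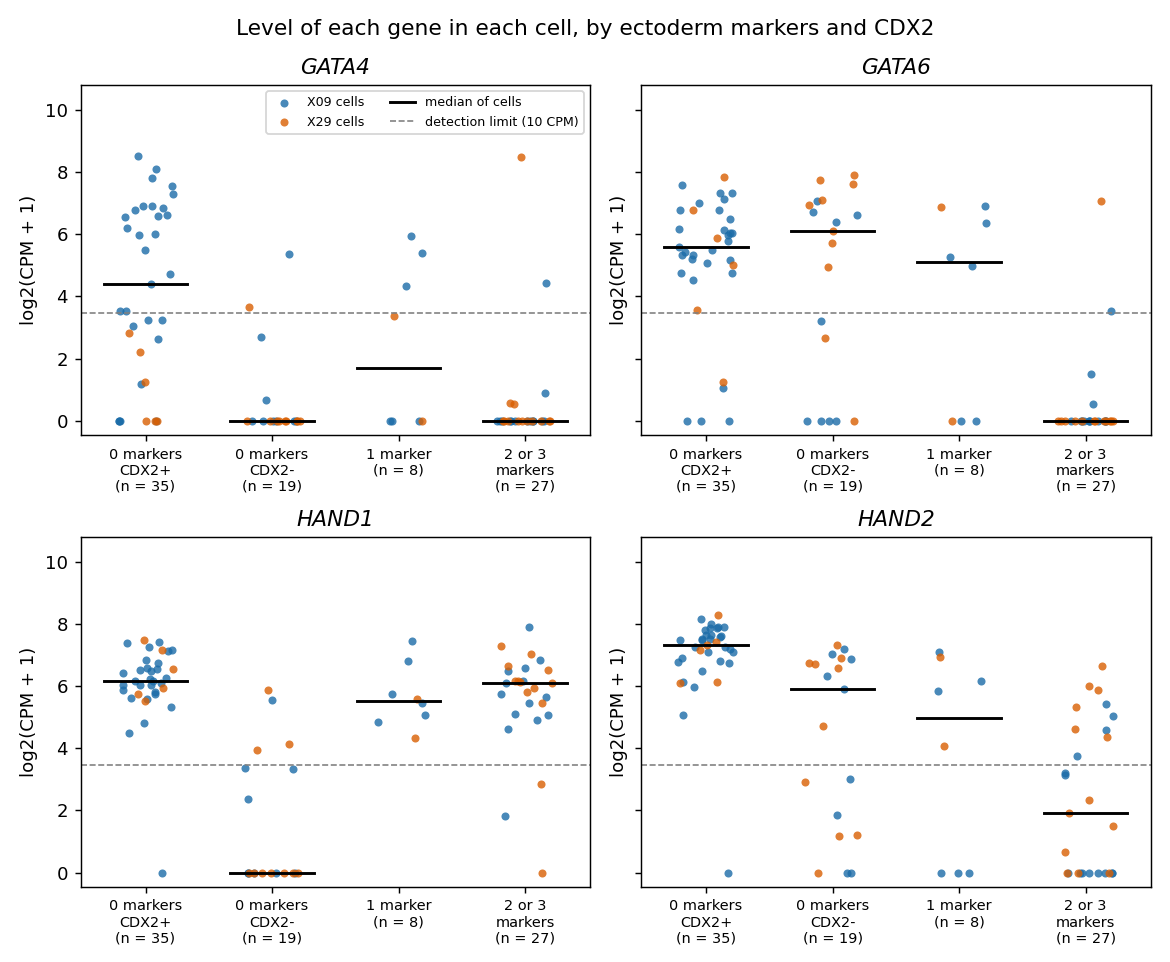
Level of GATA4, GATA6, HAND1 and HAND2 in each of the 89 cells as log2(CPM + 1), 1 point per cell, by number of ectoderm markers and CDX2 detection; X09 cells are blue, X29 cells orange, bars are medians and the dashed line is the 10 CPM limit. GATA6 and HAND2 lie high in both columns with 0 ectoderm markers and low in the column with 2 or 3, GATA4 is high mainly in X09 cells that detect CDX2, and HAND1 is low mainly in the 19 cells with neither CDX2 nor an ectoderm marker.

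Over both prefixes together GATA4, GATA6 and HAND2 were higher in cells without ectoderm markers, and HAND1 was not. GATA6 was detected in 42 of the 54 cells with 0 markers (77.8%, interval 64.4 to 87.96%) and in 2 of the 27 with 2 or 3 (7.41%, 0.910 to 24.3%). Its mean level was 70.04 ± 64.9 CPM against 5.44 ± 25.8 CPM, an 11.03-fold difference. HAND2 was detected in 45 of 54 cells (83.3%, interval 70.7 to 92.1%) against 10 of 27 (37.0%, 19.4 to 57.6%). Its mean was 124 ± 81.6 against 16.2 ± 24.9 CPM, or 7.27-fold, and it stayed between 7.02-fold and 8.93-fold when each cell was left out in turn. GATA4 was found in 22 of 54 cells (40.7%, interval 27.6 to 54.97%) and in 2 of 27 (7.41%), with means of 43.8 ± 77.1 and 14.02 ± 68.5 CPM. In X09 cells alone GATA4 was found in 21 of 38 and 1 of 14, at 61.6 and 1.52 CPM. In X29 cells alone GATA4 was not higher with 0 markers, being found in 1 of 16 and 1 of 13, at 1.42 and 27.5 CPM. The 3 genes passed the size rule in the direction in which 5.65% of the 9807 genes compared passed it, while 5.77% passed it in the other.

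The 2 ectoderm-marker cells that detected GATA4 differed in its level, and both also had CDH1, PRRX1 and HAND2. The X09 cell had 3 markers, 153 CPM of CDH1 and 147 CPM of PRRX1. It held 20.4 CPM of GATA4, 1.85 CPM of GATA6, 41.7 CPM of HAND2 and 28.7 CPM of HAND1. The X29 cell had 2 markers, 66.7 CPM of CDH1 and 192 CPM of PRRX1, and it held 356 CPM of GATA4, 134 CPM of GATA6, 57.6 CPM of HAND2 and 6.25 CPM of HAND1. Without this X29 cell the GATA4 ratio between the classes was 24.2-fold instead of 2.98-fold, and the GATA6 ratio 47.5-fold instead of 11.03-fold. The other cell of the ectoderm class that detected GATA6 had 10.6 CPM, just above the limit.

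HAND1 was detected in 38 of the 54 cells with 0 ectoderm markers (70.4%, interval 56.4 to 82.02%) and in 24 of the 27 with 2 or 3 (88.9%, 70.8 to 97.6%). The means were 56.8 ± 51.2 and 68.6 ± 50.2 CPM, 0.829-fold, and the difference of 18.5 points was short of the 20 that the rule asks for. Of the 3 ectoderm-marker cells that did not detect it, 2 still had HAND1 reads (2.55 and 6.25 CPM). In the 19 cells with all 3 ectoderm markers HAND1 was found in 18 (94.7%) at a median of 67.4 CPM, and HAND2 in 7 (36.8%). The highest HAND2 level in a cell with 2 or 3 markers was 99.2 CPM, below the median of 125 CPM in cells with 0 markers. The 8 cells with 1 marker were mixed: all 8 detected HAND1, 5 GATA6, 5 HAND2 and 3 GATA4.

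Among cells without ectoderm markers HAND1, GATA4 and HAND2 were higher where CDX2 was detected, and of the 4 genes HAND1 had the widest difference in share, 76.1 points. HAND1 was detected in 34 of the 35 cells with CDX2 (97.1%, interval 85.1 to 99.9%) and in 4 of the 19 without (21.1%, 6.05 to 45.6%). It ran from 0 to 178 CPM with a median of 71.4 in the former and from 0 to 57.4 CPM with a median of 0 in the latter, and the ratio of the means (83.1 ± 43.9 and 8.26 ± 16.3 CPM) was 9.08-fold. The single CDX2-positive cell without HAND1 was the endothelial X09 cell, which had 16.1 CPM of CDX2. GATA4 was detected in 20 of 35 cells with CDX2 (57.1%, interval 39.4 to 73.7%) and in 2 of 19 without (10.5%, 1.30 to 33.1%). The means of 65.9 ± 88.3 and 3.05 ± 9.44 CPM differed 16.5-fold, and leaving out each cell in turn gave 14.3-fold to 33.7-fold. HAND2 was detected in 34 of 35 cells (97.1%) and in 11 of 19 (57.9%, interval 33.5 to 79.7%), with means of 158 ± 71.6 and 60.9 ± 58.7 CPM, a 2.57-fold difference. Of the 35 cells 29 were X09, and of the 19 cells 9. In X29 cells alone GATA4 was detected in 0 of 6 with CDX2 and in 1 of 10 without, HAND1 in 6 of 6 and 3 of 10, and HAND2 in 6 of 6 and 6 of 10. Over both prefixes these 3 genes passed the size rule upward, as did 5.04% of the 9918 genes compared, and 3.72% passed it downward.

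GATA6 did not pass the rule by CDX2. Its share was 30 of 35 cells (85.7%, interval 69.7 to 95.2%) with CDX2 and 12 of 19 (63.2%, 38.4 to 83.7%) without, but its mean level was lower with CDX2, at 65.7 ± 57.3 against 78.03 ± 78.2 CPM. The 19 cells without CDX2 included 4 of the 5 cells with endothelial markers, and in those 5 cells HAND1 had no read, GATA4 was found in 2 (10.5 and 11.6 CPM), GATA6 in 1 (51.8 CPM) and HAND2 in 1 (25.2 CPM). Without them, HAND1 and HAND2 were detected in all 34 cells with CDX2, and HAND1 in 4 (26.7%), HAND2 in 10 (66.7%), GATA6 in 11 (73.3%) and GATA4 in 1 of the 15 cells without. The ratios then were 7.55-fold for HAND1, 2.15-fold for HAND2, 16.8-fold for GATA4 and 0.715-fold for GATA6. The same 3 genes passed the rule, with 5.59% of 9443 genes passing upward and 4.69% downward.

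**Figure D2:**
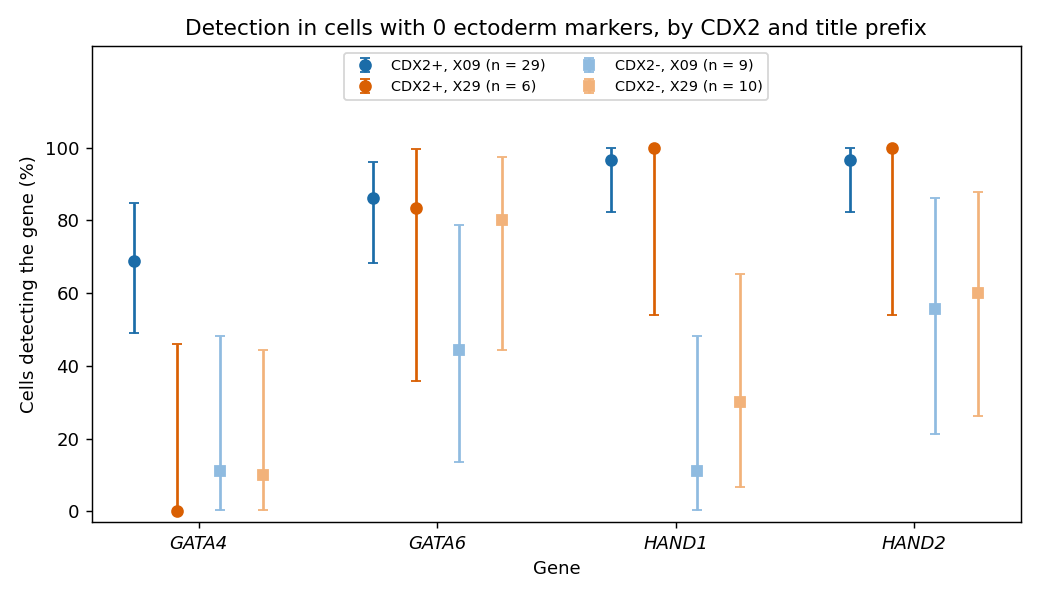
Share of cells detecting each gene (%) among cells with 0 ectoderm markers, by CDX2 detection and title prefix, with exact Clopper-Pearson intervals at 95% as error bars. GATA4 reached 68.97% in the X09 cells with CDX2 and 0% in the 6 X29 cells with CDX2, whereas GATA6, HAND1 and HAND2 were at 83.3% or more in both.

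GATA4 was detected more often in X09 than in X29 cells. Over all cells it was detected in 25 of 58 X09 cells (43.1%, interval 30.2 to 56.8%) and in 2 of 31 X29 cells (6.45%, 0.791 to 21.4%). Among cells with 0 ectoderm markers it was found in 21 of 38 X09 cells (55.3%) and in 1 of 16 X29 cells (6.25%), at 61.6 ± 86.1 and 1.42 ± 3.22 CPM, a ratio of 25.9-fold. It passed the rule there, with 6.42% of 9710 genes passing in its direction and 1.25% in the other. CDX2 was detected in unequal shares of these cells, in 29 of 38 and in 6 of 16, so the comparison was repeated where CDX2 was detected. There GATA4 was found in 20 of 29 X09 cells (68.97%, interval 49.2 to 84.7%) and in 0 of 6 X29 cells (interval 0 to 45.9%). The 6 X29 cells had 0, 0, 0, 1.36, 3.63 and 6.09 CPM of GATA4, below the median of 62.7 CPM and the highest value of 367 CPM among the 29 X09 cells. Reads of the gene were thus present in 3 of the 6 cells, all under the limit.

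In the same CDX2-positive cells the other 3 genes did not pass the rule between the prefixes. HAND1 was detected in 28 of 29 X09 and 6 of 6 X29 cells, at means of 80.6 ± 42.2 and 94.9 ± 53.9 CPM. HAND2 was likewise found in 28 of 29 and 6 of 6, at 159 ± 69.05 and 153 ± 90.3 CPM, and GATA6 in 25 of 29 and 5 of 6, at 64.1 ± 51.5 and 73.4 ± 85.97 CPM. The rule was passed by 14.7% of 9735 genes with X09 higher and by 2.71% with X29 higher. Median depth was 1407460 reads and 5802 genes with a read in the 29 X09 cells against 1324590 reads and 5292 genes in the 6 X29 cells, and 2 of the 6 had fewer than 4000 genes with a read. Of 12 mesenchyme markers a median of 8 was detected per cell in the former and 6 in the latter. The summed endothelial level had a median of 126 CPM in the X09 and 102 CPM in the X29 cells. Its highest values were 8020 CPM, in the endothelial X09 cell, and 257 CPM. The part of these measures in the GATA4 difference was not tested, and what separates the prefixes cannot be told apart from it. GATA6 passed the rule between the prefixes in another class, with X29 higher. Among the 15 cells of the 0-marker class without CDX2 and with fewer than 5 endothelial markers (1 to 3 each), GATA6 was detected in 7 of 7 X29 cells (143 ± 76.9 CPM) and in 4 of 8 X09 cells (53.2 ± 56.3 CPM), 2.65-fold higher in X29, where 5.51% of 10342 genes passed the rule in that direction and 13.4% in the other. In the ectoderm-marker cells no gene of the 4 passed the rule between prefixes, against 7.15% of 9421 genes with X09 higher and 4.69% with X29 higher. HAND2 was near the rule there, at 8.95 ± 13.8 CPM in X09 (4 of 14 cells) and 23.9 ± 31.8 CPM in X29 (6 of 13 cells), and leaving out any 1 of 11 cells made it pass with X29 higher.

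**Figure D3:**
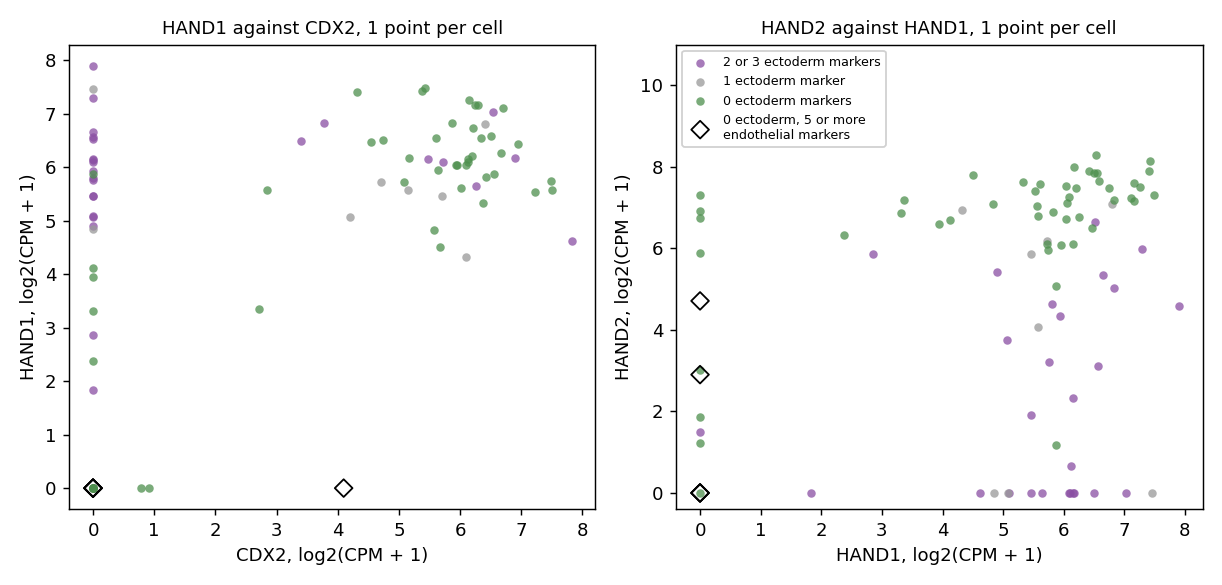
HAND1 against CDX2 (left) and HAND2 against HAND1 (right), both axes log2(CPM + 1), 1 point per cell, coloured by number of ectoderm markers, with diamonds for the 5 cells with endothelial markers. Cells without CDX2 divide into ectoderm-marker cells, mostly with HAND1, and cells of the 0-marker class that mostly lack it. In HAND1-positive cells HAND2 was mostly higher with 0 markers than with 2 or 3, but the levels overlapped. HAND2 went down to 1.28 CPM in the former and up to 99.2 CPM in the latter.

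In the ectoderm class HAND1 was detected with and without CDX2. Of its 27 cells, 7 detected CDX2, and HAND1 was found in 7 of these 7 (from 23.5 to 129 CPM, median 70.5) and in 17 of the 20 others (85%, median 57.4 CPM). HAND2 was found in 1 of the 7 cells with CDX2 and in 9 of the 20 without (45%). GATA4 had no read in the 7 cells with CDX2. Among cells without CDX2, HAND1 was thus detected in 85% of ectoderm-marker cells (interval 62.1 to 96.8%) and in 21.1% of cells with 0 ectoderm markers (6.05 to 45.6%). Without the cells with endothelial markers the latter share was 26.7% (7.79 to 55.1%). These intervals cover counting error in 1 pool only, and the share of all genes that differ in this comparison was not computed.

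Cell by cell, 12 of the 16 possible combinations of the 4 genes occurred, and 3 of them held 53 of the 89 cells. All 4 genes were detected together in 21 cells (23.6%, interval 15.2 to 33.8%), GATA6, HAND1 and HAND2 without GATA4 in 16 (17.98%), and HAND1 alone in 16 (17.98%). All 21 cells with all 4 genes were X09 cells that detected CDX2, 18 with 0 ectoderm markers and 3 with 1. Their levels ran from 10.5 to 367 CPM for GATA4 (median 92.7), from 22.3 to 160 for GATA6 (median 64.4), from 21.6 to 152 for HAND1 (median 73.01) and from 56.7 to 253 for HAND2 (median 145). These cells had a median of 6328 genes with a read against 5391 in the 61 cells with 1 to 3 of the genes, with similar read totals (medians 1403920 and 1472910). The part of this in the combination was not tested.

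**Figure D4:**
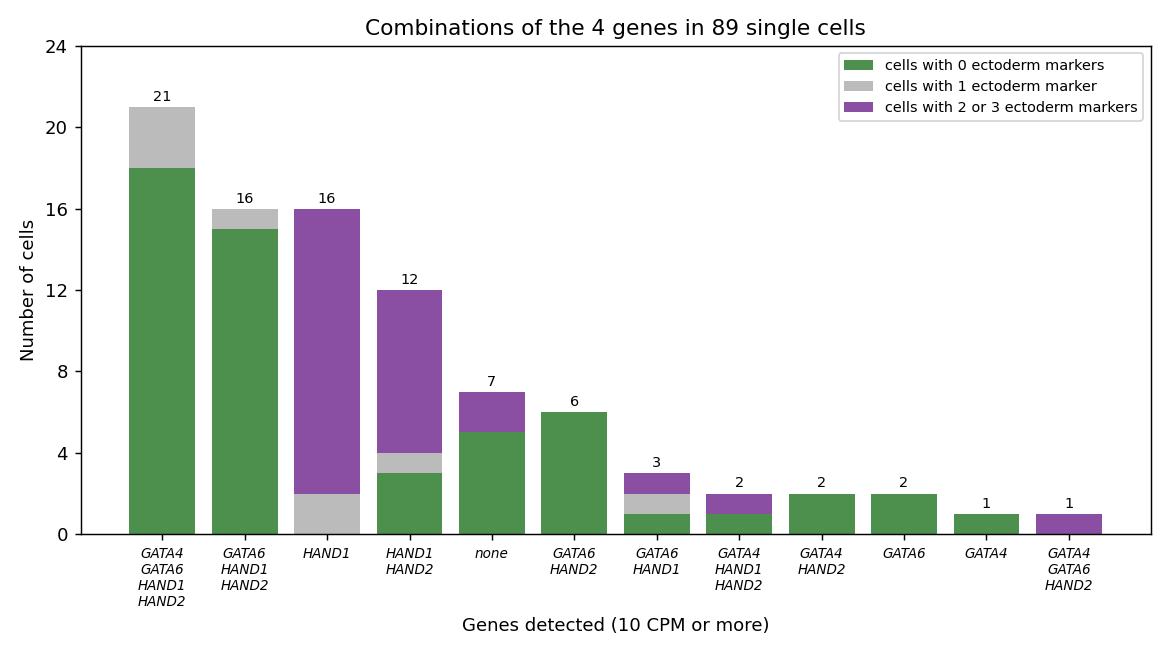
Number of cells (vertical axis) with each combination of detected genes (horizontal axis), stacked by number of ectoderm markers; numbers above the bars are cells. The 21 cells with all 4 genes and the 16 with GATA6, HAND1 and HAND2 held no cell with 2 or 3 ectoderm markers, and 14 of the 16 cells with HAND1 alone had 2 or 3.

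HAND1 alone was the leading combination of the ectoderm class, in 14 of its 27 cells (51.9%, interval 31.9 to 71.3%), followed by HAND1 with HAND2 in 8 (29.6%, 13.7 to 50.2%). No cell with 0 ectoderm markers had HAND1 alone. The GATA6, HAND1 and HAND2 combination had 8 cells of each prefix, 13.8% of X09 and 25.8% of X29 cells, and 15 of its 16 cells had 0 markers. Among cells with 0 markers and CDX2 it was found in 7 of 29 X09 cells (24.1%) and in 5 of 6 X29 cells (83.3%). GATA6 with HAND2 but without HAND1 or GATA4 was found in 6 cells, all with neither CDX2 nor an ectoderm marker, where they made up 31.6% (6 of 19, interval 12.6 to 56.6%). The 3 X09 cells among them had HAND1 reads under the limit (9.24, 8.97 and 4.20 CPM), and the 3 X29 cells had 0. HAND1 with HAND2 alone had 12 cells in all, GATA6 with HAND1 had 3, and 5 rarer combinations held 1 or 2 cells each. None of the genes was detected in 7 cells, 5 with 0 markers and 2 with 2 or 3. Of the 5, 2 were cells with endothelial markers, while the other 3 were X09 cells with 58.4, 112 and 254 CPM of PRRX1. In this order the 3 had 8.27 CPM of GATA6, 2.64 CPM of HAND2 and 7.05 CPM of HAND2, all under the limit.

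Within the class where GATA4 was most frequent, the levels of the other 3 genes with and without it differed by less than their SDs over cells. Of the 29 X09 cells with CDX2 and 0 ectoderm markers, 20 detected GATA4 (10.5 to 367 CPM, mean 113 ± 91.8) and 9 did not (highest 8.47 CPM). GATA6 was found in 18 of the 20 and 7 of the 9, at means of 64.9 ± 46.1 and 62.3 ± 64.96 CPM. HAND1 was found in 19 of 20 and 9 of 9, at 74.6 ± 36.6 and 94.1 ± 52.6 CPM, and HAND2 in 19 of 20 and 9 of 9, at 148 ± 70.2 and 184 ± 63.1 CPM. HOXB5, a homeobox gene of the HOXB cluster, was detected in all 29 cells, at means of 478 and 457 CPM.

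The cells with GATA4 were, with 1 exception, a part of the cells with HAND2. HAND2 was detected in 26 of the 27 GATA4 cells (96.3%), which were 43.3% of the HAND2 cells, the exception being the endothelial cell with CDX2. GATA6 was detected in 22 (81.5%), which were 44.9% of the GATA6 cells. GATA6 and HAND2 met in 44 cells, 89.8% of the GATA6 cells and 73.3% of the HAND2 cells. HAND1 and HAND2 met in 51 cells, 72.9% and 85% of theirs. Across the 89 cells of the pool, Pearson's r of log2(CPM + 1) was 0.64 for GATA6 and HAND2, 0.51 for GATA4 and HAND2, 0.44 for GATA4 and GATA6, 0.28 for HAND1 and HAND2, 0.19 for GATA4 and HAND1 and 0.04 for GATA6 and HAND1. All points share the pool and its depth, and r with the number of genes with a read was 0.34 for GATA4, 0.29 for HAND2, 0.20 for GATA6 and 0.06 for HAND1.

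Inside the class with 0 ectoderm markers the order was another. HAND1 and HAND2 had an r of 0.68 over these 54 cells and 0.57 without the 5 endothelial cells. For GATA6 and HAND2 it was 0.48 and 0.26, and for GATA4 and GATA6 0.09 and 0.03. For GATA4 and HAND1 it was 0.42 and 0.41, for GATA4 and HAND2 0.34 and 0.31, and for GATA6 and HAND1 0.33 and 0.15. In the 35 cells with CDX2, r of HAND1 and HAND2 was 0.80, but 0.28 without the 1 endothelial cell that had neither. In the same 35 cells r of GATA4 was -0.06 with HAND1 and -0.04 with HAND2. GATA6 and HAND1 differed in sign between the prefixes over all cells, at 0.32 in X09 and -0.35 in X29 cells.

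**Figure D5:**
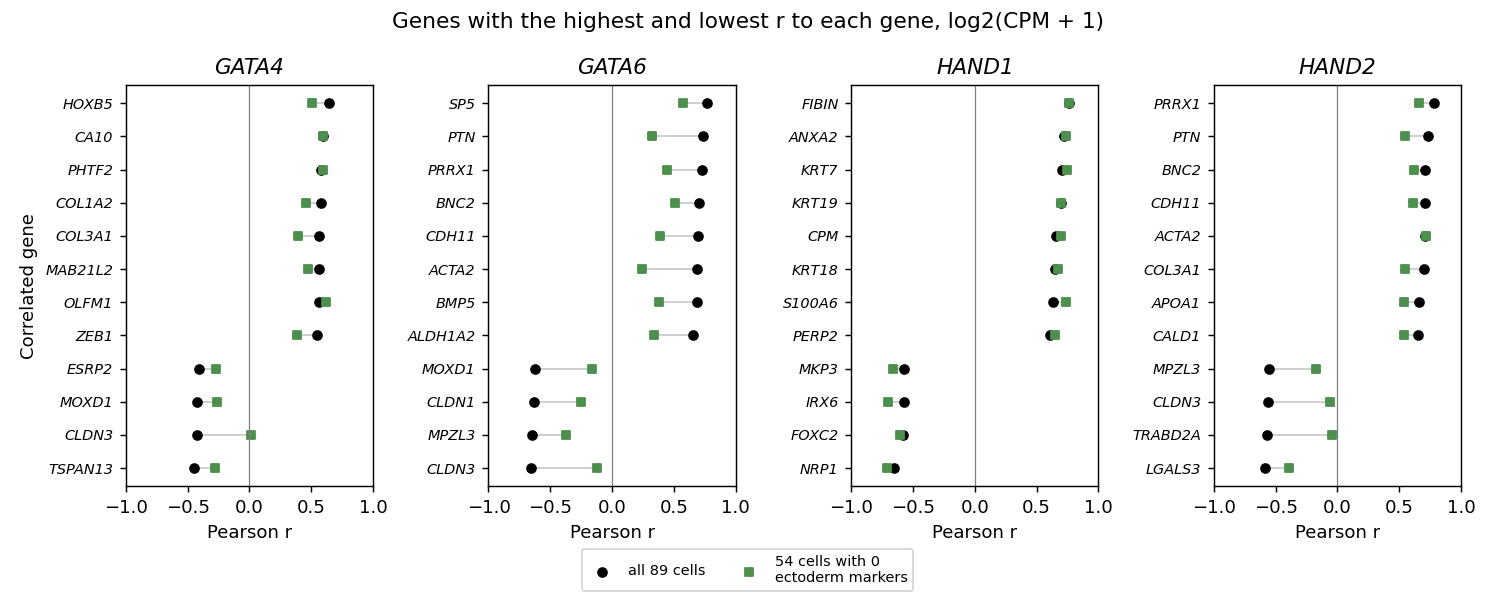
Pearson's r (horizontal axis) between each gene and its 8 highest and 4 lowest partners among 7876 other genes over all 89 cells (black circles), and the same r in the 54 cells with 0 ectoderm markers (green squares). For HAND1 the pairs of values lay close together, and for the lowest partners of GATA6 and HAND2 the value nearest 0 was the one within the 0-marker class.

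Of the 8 genes nearest to GATA6, to HAND2 and to GATA4, 3 each were on the list of 12 mesenchyme markers. Each 8 were taken from 7876 genes. PRRX1 and CDH11 were there for GATA6 and HAND2, with ALDH1A2 for GATA6 and COL3A1 for HAND2. For GATA4 the genes were COL1A2, COL3A1 and ZEB1. For GATA6 the highest r over the 89 cells was with SP5, a zinc finger target of WNT signalling (0.77), then PTN, a secreted growth factor (0.74), PRRX1 (0.73), BNC2, a zinc finger factor (0.70), CDH11, a mesenchymal cadherin (0.69), the smooth muscle actin gene ACTA2 (0.68), BMP5, a bone morphogenetic protein (0.68), and ALDH1A2, which makes retinoic acid (0.66). For HAND2 it was with PRRX1 (0.78), PTN (0.73), BNC2 (0.71), CDH11 (0.71), ACTA2 (0.71), the collagen gene COL3A1 (0.70), the apolipoprotein gene APOA1 (0.66) and CALD1, an actin-binding protein (0.65). ACTA2, BNC2, CDH11, PRRX1 and PTN were common to the 8 of GATA6 and the 8 of HAND2, which were measured in the same cells. The lowest values of GATA6 were with CLDN3 (-0.66), MPZL3 (-0.65), CLDN1 (-0.63) and MOXD1 (-0.63), and those of HAND2 with LGALS3 (-0.59), TRABD2A (-0.57), CLDN3 (-0.56) and MPZL3 (-0.56). CLDN3 is among the 3 markers that define the classes, CLDN1 is a claudin too, and LGALS3 encodes galectin-3.

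Most of these values lay nearer 0 within the 0-marker class. There r with ACTA2 was 0.24 for GATA6 and 0.71 for HAND2, and r with CLDN3 was -0.12 and -0.06. Without the 5 cells with endothelial markers r with ACTA2 was -0.13 and 0.55, r with CDH11 was -0.01 for GATA6 against 0.38 with them, and r of HAND2 with LGALS3 was 0.06 against -0.39 with them. In this class the leading partners of GATA6 were the homeobox gene MSX2 (0.62), SP5 (0.57), the receptor gene FGFR3 (0.53), BNC2 (0.51) and FKBP3, a prolyl isomerase (0.50). Those of HAND2 were PERP2 (0.78), MSX1 (0.73), MSX2 (0.73), ACTA2 (0.71) and KRT7 (0.69). Without the cells with endothelial markers all of these were lower. In the order given they were 0.53, 0.48, 0.37, 0.40 and 0.49 for GATA6, and 0.67, 0.55, 0.56, 0.55 and 0.58 for HAND2. SP5 held for GATA6 in both prefixes over all cells (0.77 in X09 and 0.79 in X29), and PRRX1 for HAND2 (0.83 and 0.69).

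Of the 8 genes nearest to HAND1, 3 were keratin genes from the list of 13 surface ectoderm markers. These were detected in nearly all cells, KRT7 in 98.9% and KRT18 and KRT19 in 95.5% each. CDH1, from the same list, had an r with HAND1 of 0.21 over all cells and -0.15 in the 0-marker class. The 8 were FIBIN, a secreted protein (0.76), ANXA2, an annexin (0.72), the keratin genes KRT7 (0.71), KRT19 (0.70) and KRT18 (0.65), the gene CPM, which encodes carboxypeptidase M (0.66), S100A6, a calcium-binding protein (0.63), and PERP2 (0.61). None of them was among the 8 nearest to GATA4, GATA6 or HAND2 over all cells, where each 8 were taken from 7876 genes. In the 0-marker class PERP2 (0.78) and KRT7 (0.69) were among the leading partners of HAND2 as well. Within the 54 cells with 0 ectoderm markers r with HAND1 was 0.76 for FIBIN and 0.75 for KRT7, and within the 27 with 2 or 3 it was 0.74 and 0.60. In the latter it was 0.50 for PERP2 and 0.26 for S100A6. CDX2 differed more between the classes. Its r with HAND1 was 0.83 in the 0-marker cells, the highest of any gene there, 0.50 over all cells and 0.17 in the ectoderm class. Within the 35 0-marker cells that detected CDX2 it was 0.22. The other leading genes of the 0-marker cells were FIBIN, MSX1 (0.76), KRT7 and S100A6 (0.74). The lowest values over all cells were with NRP1, a neuropilin (-0.65), the forkhead gene FOXC2 (-0.58), the homeobox gene IRX6 (-0.57) and MKP3, a phosphatase that limits MAP kinase (-0.57).

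The neighbours of GATA4 had lower values. They were HOXB5 (0.64), CA10, a carbonic anhydrase-related protein (0.59), PHTF2 (0.58), the collagen genes COL1A2 (0.58) and COL3A1 (0.56), MAB21L2 (0.56), OLFM1, a secreted olfactomedin (0.56), and ZEB1, a repressor of epithelial genes (0.55). In X29 cells, where GATA4 was detected in 2 of 31, these ran down to 0.04 for CA10 and 0.05 for COL1A2 and MAB21L2. Within the 0-marker class the highest were OLFM1 (0.62), CA10 (0.60), SLC12A2, an ion cotransporter (0.59), PHTF2 (0.59) and the septin gene SEPT7 (0.56). In that class r of GATA4 was 0.51 with HOXB5, 0.47 with MAB21L2, 0.46 with COL1A2, 0.39 with COL3A1 and 0.38 with ZEB1. The lowest over all cells were with TSPAN13 (-0.45), CLDN3 (-0.43), MOXD1 (-0.42) and ESRP2, an epithelial splicing factor (-0.41).

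Counts for lists of related genes stand beside the shares over all genes compared, which were 5.65% higher and 5.77% lower with 0 ectoderm markers, and 5.04% higher and 3.72% lower with CDX2. The remaining GATA genes passed the size rule in both directions by marker class. Of the 3 that could be compared, GATA5, a close relative of GATA4 and GATA6, was higher in cells with 0 ectoderm markers, at 370.3 against 95.3 CPM and 88.9% against 51.9% of cells. GATA2 and GATA3, which act in surface ectoderm and in trophoblast of the mouse, were lower there. GATA2 was at 34.2 against 458 CPM (42.6% against 96.3% of cells), and GATA3 was detected in 0 of 54 cells against 11 of 27 (40.7%). By CDX2, GATA2 was higher in the cells that detected it, at 48.3 against 8.12 CPM (57.1% against 15.8%), while GATA5 did not pass the rule (342 against 422 CPM). All 3 detections of GATA2 in cells without CDX2 were among the 4 with endothelial markers, since it was at 0% and 0.282 CPM in the other 15.

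Among 10 partner factors of GATA and HAND proteins that could be compared, of 13 listed, 2 were higher and 2 lower in cells with 0 ectoderm markers. The shares of all genes were 5.65% and 5.77%. ZFPM1, which binds the GATA zinc finger, was found in 35.2% against 11.1% of cells, and MEF2A in 53.7% against 33.3%. The heart factors NKX2-5 (3.70% against 40.7%) and ISL1 (22.2% against 59.3%) were both lower there. The coactivator EP300 (74.9 and 76.4 CPM) and SRF (64.3 and 61.2 CPM) did not pass the rule. By CDX2, 0 of 12 partners were higher in the cells that detected it and 3 were lower (all genes 5.04% and 3.72%): ISL1 (5.71% against 52.6%), LMO4 (20% against 52.6%) and MEF2C (2.86% against 26.3%). NKX2-5 had no read in the 35 cells with CDX2. Without the endothelial cells ISL1 and LMO4 were still lower and MEF2C was no longer so. The list median of the log2 ratio was 0.16 by marker class and -1.24 by CDX2, against 0.04 and -0.08 for all genes compared.

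Of 9 E proteins, ID inhibitors and related factors, TWIST1 was higher in cells with 0 ectoderm markers (35.2% against 3.70% of cells) and ID3, which keeps E proteins from DNA, was lower (35.2% against 96.3%). TCF12, an E protein and so a possible dimer partner of HAND1 and HAND2, was detected in 98.1% and 96.3% of cells, at 1029 and 325 CPM, and did not pass the rule since its share was alike. ID2 did not pass either, at 349 and 722 CPM. TWIST1 was the 1 gene of 11 that passed by CDX2, and was lower with CDX2 (20% against 63.2%). The medians of this list were 0.60 by marker class and -0.57 by CDX2. Without the cells with endothelial markers the median by CDX2 was -0.08, against -0.03 for all genes compared.

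Across the 10 and 11 genes compared from 2 lists of signalling pathways, 5 were higher and 1 lower with 0 ectoderm markers, against 5.65% and 5.77% of all genes. Of 10 bone morphogenetic protein genes and their receptors and SMADs, BMP5 was higher with 0 ectoderm markers (198 against 13.7 CPM, 72.2% against 7.41% of cells), while BMP4 (67.1 against 152 CPM) and SMAD5 (196 against 156 CPM) did not pass. Of 11 genes of the hedgehog, retinoid, WNT and FGF pathways 4 were higher, ALDH1A2 among them (68.5% against 3.70%) with GLI3 (88.9% against 51.9%) and WNT5A (50.0% against 18.5%), and WNT3A was lower (1.85% against 40.7%). By CDX2 none of the 10 and 8 genes of these lists passed in either direction. The medians by marker class were 0.09 and 0.36, and by CDX2 0.19 and 0.18. Without the cells with endothelial markers those by CDX2 were -0.11 and -0.01.

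Of 10 heart genes with known input from GATA or HAND factors that could be compared, 5 were higher with 0 ectoderm markers. A further 0 were lower and 5 did not pass the rule, against 5.65% and 5.77% of all genes higher and lower. The list median of the log2 ratio was 1.96. The 5 higher genes included MYL2 (59.3% against 11.1% of cells), TNNT2 (94.4% against 55.6%) and NPPA (37.0% against 11.1%). TNNC1 (656 against 188 CPM) and ACTC1 (23.3 against 79.6 CPM) did not pass the rule. Of the 9 measured cardiomyocyte markers, all 9 were detected in cells with 0 ectoderm markers and 7 in ectoderm-marker cells (all but ACTN2 and RYR2). By prefix, 8 were detected in X09 cells (all but ACTN2) and 9 in X29 cells. The summed level of the 9 measured markers ran from 0 to 2228 CPM (median 461) with 0 ectoderm markers and from 0 to 544 CPM (median 136) with 2 or 3. All of these markers except NKX2-5 are also on the list of heart genes, so their sum is not a separate measure. The cause of the difference was not tested. By CDX2, the myosin light chain genes MYL4 (57.1% against 26.3%) and MYL3 (28.6% against 5.26%) were higher and the calcium channel gene RYR2 was lower (2.86% against 31.6%), against 5.04% and 3.72% of all genes. Without the cells with endothelial markers the myosin light chain gene MYL2 passed as well and was lower with CDX2 (25.9 against 72.7 CPM, 55.9% against 80% of cells), which made 2 higher and 2 lower.

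Of 11 other regulators of the lateral plate that could be compared, 3 were higher with 0 ectoderm markers, 0 were lower and 8 did not pass the rule. The shares of all genes were 5.65% higher and 5.77% lower. The median was 1.42. HEY1, a repressor that acts downstream of Notch, was among the 3 (44.4% against 22.2% of cells). By CDX2, 3 of 12 were higher, among them the homeobox genes MSX1 (2369 against 195 CPM, 97.1% against 68.4%) and MSX2 (91.4% against 68.4%), against 5.04% of all genes. Without the cells with endothelial markers MSX2 no longer passed (1.74-fold, 94.1% against 86.7%), which left 2 higher. A further 4 were lower, against 3.72% of all genes, among them FOXC2 (0% against 47.4%), HEY2 (17.1% against 63.2%) and IRX5 (0% against 31.6%), and the median was -0.69. Between the prefixes in cells with 0 ectoderm markers, 3 genes of the 7 lists passed the rule, 1 each of 10 BMP genes, 11 heart genes and 12 lateral plate regulators, near the 6.42% of all genes with X09 higher (1.25% with X29 higher). They were MSX1 (94.7% against 68.8%), MYL4 (57.9% against 18.8%) and BMP7 (44.7% against 12.5%).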

How the data were processed

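The deposited table holds whole-number read counts of each gene in 89 cells. HISAT2 2.1.0, GRCg6a and featureCounts are named in the submitters' processing notes, with settings not given in the sources used here. Per the labels, cDNA came from the SMARTer v4 kit, which adds no molecular identifiers, so amplified copies were counted. Strand use in counting is not stated, so reads of antisense transcripts cannot be told apart. CPM was computed from these counts over 13823 gene rows, leaving out 3 spike-in rows (5.99% of reads). All titles map to 1 pool. No filter on cells and no doublet caller was used, so a chamber that caught more than 1 cell cannot be told from a single cell with mixed markers. The members, markers and gene lists were chosen with earlier results of these data known. Genes compared by the size rule were detected in at least 10% of the cells of either class. Correlations used log2(CPM + 1). Besides the 4 genes, the text names for each the 8 highest and 4 lowest partners with a symbol over all cells, the 5 highest in the 0-marker class, and per list up to 3 genes past the rule in each direction and up to 2 others of highest mean. CDX2, HOXB5, PRRX1 and KRT7 values, and the cells singled out, were chosen after their values were seen. Some genes that this rule names are not reported here. Alternatives were any read or 50 CPM as the limit, 10 CPM added, each prefix alone, other scaling and leaving out cells. The size rule and the correlations were tested on simulated data. Python 3.11.15, pandas 2.3.3, numpy 2.4.6, scipy 1.17.1 and matplotlib 3.10.9 were used. Coordinates and sequences were not used here.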

Additional observations from a re-analysis of the deposited data

How the results depend on the processing

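No paired analysis was possible because there is 1 group of cells and no test. Under the planned settings 171 values lay inside the interval for counting error around the reported share or difference, or within 1.5 times a reported count, although the small prefix differences of GATA6 and HAND2, which had not passed the size rule, changed sign under some of them. A further 25 lay outside that range and 2 reversed. With any read counted as detection, GATA4 was found in 46.1% and HAND2 in 79.8% of cells, all 4 genes in 37.1% and none in 2.25%, and the differences by CDX2 were 50.2 points for HAND1 and 13.96 for HAND2. With a limit of 50 CPM, GATA4 was found in 19.1%, GATA6 in 35.96%, HAND1 in 55.1% and HAND2 in 56.2% of cells, all 4 in 7.87% and none in 21.3%. The differences then were 47.6 points for GATA6 and 64.3 for HAND2 by marker class, and -2.49 for GATA6 and 48.3 for HAND1 by CDX2. In X09 cells alone GATA4 differed by 48.1 points between marker classes, against 33.3 overall. In X29 cells alone its difference reversed, to -1.44 points by marker class and -10.0 by CDX2, since 2 X29 cells detected it in all. Its difference between prefixes was 36.7 points over all cells and 68.97 in CDX2-positive cells with 0 ectoderm markers, a setting chosen after seeing the data. Genes past the size rule numbered, between prefixes, 623 higher and 121 lower as reported, 384 and 79 with 10 CPM added, and 240 and 68 at 50 CPM. By CDX2 they numbered 500 and 369 as reported, 164 and 105 at 50 CPM, and 616 lower in X09 cells alone. By marker class 554 were higher as reported and 846 in X09 cells alone. All 8 nearest genes of each of the 4 stayed among the 50 highest with Spearman's rho, 10 CPM added, X09 cells alone, and without cells of fewer than 4000 genes with a read. These settings keep the marker classes mixed. Within the 0-marker class all 8 of HAND1 stayed among the 50 highest. Some of the others did not, such as ACTA2 (rank 486) and PTN (108) for GATA6, and ZEB1 (162) and COL3A1 (131) for GATA4. The cause of these changes was not tested. At 328645 reads, 10 CPM is about 3 reads, so absence near the limit cannot be told from shallow sampling in such cells.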
